A study of Mus musculus with 12 samples.

Results

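The integrin subunits described here are 10 genes that bone marrow-derived macrophages (BMDMs) express, of 34327 genes in the table. They were chosen by symbol and comprise the α subunits Itga4, Itga5, Itga6, Itgal, Itgam, Itgav and Itgax and the β subunits Itgb1, Itgb2 and Itgb5. All 10 had a mean of at least 1 TPM, the filter of the test. The 12 RNA-seq libraries were from wild-type C57BL/6J BMDMs (strain C57BL/6 in the sample characteristics), grown from mouse bone marrow in L929 cell-conditioned medium, in 6 conditions of 2 libraries each. The cells were embedded in floating gels of rat tail collagen I, at 2 mg/ml (low-collagen gels) or 7 mg/ml (high-collagen gels), or were kept on tissue culture (TC) plates without a gel, and on each substrate they were left untreated or given the type 2 cytokine IL-4 at 20 ng/ml, with 24 hours in the sample labels. The comparisons address whether the transcripts of matrix and cell adhesion receptors differ between a gel and a plate, between gel densities and with IL-4. Gels and TC plates differ in geometry, stiffness, collagen and handling at once, so the part of each cannot be told apart.

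Integrins are receptors made of 1 α and 1 β subunit that join ligands outside the cell to the actin cytoskeleton inside it, and the α subunit largely sets which ligand is bound. Subunits of the β2 group, found on leukocytes, pair Itgb2 (CD18) with Itgal (CD11a, which binds ICAMs), Itgam (CD11b, the complement receptor for iC3b and a receptor for fibrinogen) or Itgax (CD11c, a related complement receptor widely used as a dendritic cell marker). Itgb1 pairs with Itga4 (a receptor for VCAM-1 and fibronectin), Itga5 (the main fibronectin receptor), Itga6 (a laminin receptor) and others, and Itgav pairs with Itgb5, Itgb3 and Itgb1 to bind vitronectin and other ligands with an RGD motif. The canonical collagen-binding integrins pair Itgb1 with Itga1, Itga2, Itga10 or Itga11. According to the paper, an interaction with collagen has been reported for some β2 integrins too.

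Values are TPM, the abundance of the transcripts of a gene corrected for their length and set to 1 sum for all libraries, so levels of different genes can be set beside each other. TPM carry no sequencing depth, and no counting interval can be given. Differences are log2 fold changes of TPM + 1 from 1 limma fit of all 12 libraries and 11865 genes, and calls needed an adjusted p under 0.05 (Benjamini-Hochberg over those genes). The adjusted p-values measure the spread between libraries, since nothing says that the 2 libraries of a condition came from separate cultures or mice. In bulk RNA, fewer cells of a type and less RNA per cell cannot be told apart.

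The labelled cell type was checked on marker lists. The 7 macrophage markers (Adgre1, Csf1r, Cd68, Mertk, Fcgr1, Lyz2 and Cd14) summed to between 17327 and 53553 TPM in a library, most of it Lyz2. The sum was 17327 to 28258 TPM on TC plates and 30493 to 53553 TPM in gels. For the mean of the gels against plates, 5 of the 7 were called higher, Cd68 was called lower (−0.36) and Cd14 was not called (−0.1). Against plates, Cd14 was lower in untreated gels (−1.02 in low- and −0.73 in high-collagen gels). With IL-4 it was higher (0.34 and 1.01). The 8 neutrophil markers summed to 5.25 to 10.6 TPM on TC plates and 14.6 to 34.6 TPM in gels, mostly S100a8 and S100a9, with Ly6g at 0 in all 12 libraries and Mpo at 0 in 11. Markers of dendritic cells summed to at most 2.57 TPM, of lymphocytes to at most 1.34 TPM, of mast cells or basophils to at most 1.32 TPM and of fibroblasts to at most 0.833 TPM. The 5 megakaryocyte markers summed to 813 to 1163 TPM, nearly all of it Pf4, with Gp9 and Gp1bb at 0 in 11 libraries. Several members are also expressed by neutrophils, and the part of the neutrophil markers in the differences between gels and TC plates was not tested.

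The members held 94.3% to 98.4% of the summed TPM of all integrin subunits in a library. Of the 16 other subunits looked at, 11 had a mean under 1 TPM, with no value above 1.18 TPM. Among these were the 4 canonical collagen-binding α subunits, which reached at most 1.15 TPM in any library of gels or plates, and Itga11 was listed at 0 in all 12. Itgb3, a β chain that pairs with Itgav, was the most abundant of the other 5 and is described below.

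The α subunit genes of the β2 group all lie on mouse chromosome 7, where Itgam, Itgax and Itgad are neighbours and Itgal lies apart from them. In GRCm38, Itgal lies at chr7:127296260-127335138, Itgam at chr7:128062640-128118491, Itgax at chr7:128129547-128150657 and Itgad at chr7:128154376-128223816, all on the plus strand, with 11055 bases between the end of Itgam and the start of Itgax. Their promoters are shown because Itgam and Itgax, next to each other, moved in opposite directions with IL-4. RefSeq (GRCm38.p6) held a promoter for 7 of the 10 members, from 250 bases before the start of the gene to 50 after it, and the 250 bases before the start are printed for these genes, at chr7:128062390-128062639 for Itgam and chr7:128129300-128129549 for Itgax. Capitals mark matches, on either strand, to the STAT6 pattern (TTC and GAA with any 4 bases between them), to GAGGAA, the core of sites for the myeloid factor PU.1, and to the AP-1 pattern TGANTCA.
Itgam promoter: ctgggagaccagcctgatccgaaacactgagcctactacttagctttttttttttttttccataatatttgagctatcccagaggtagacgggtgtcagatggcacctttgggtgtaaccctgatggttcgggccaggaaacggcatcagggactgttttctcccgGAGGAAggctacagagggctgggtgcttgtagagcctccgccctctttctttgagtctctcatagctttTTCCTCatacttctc
Itgax promoter: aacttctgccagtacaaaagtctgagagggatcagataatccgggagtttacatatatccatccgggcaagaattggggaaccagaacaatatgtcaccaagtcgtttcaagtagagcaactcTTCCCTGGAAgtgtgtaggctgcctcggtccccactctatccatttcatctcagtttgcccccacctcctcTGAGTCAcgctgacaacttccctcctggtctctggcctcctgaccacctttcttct
The Itgax promoter had 1 STAT6 match, with its first base at −127 from the start, 1 AP-1 match at −56 and 0 matches to GAGGAA. The Itgam promoter had 3 matches to GAGGAA, at −84, −15 and, past the printed part, at 33 bases after the start, and 0 to the other patterns. Itgax was the only one of the 7 members with a STAT6 match and the only one with an AP-1 match, and Itgam, Itgav, Itgb1 and Itga5 matched GAGGAA. Of 32851 promoters of the same length, 6.95% held the STAT6 pattern, 28.3% GAGGAA and 7.81% the AP-1 pattern. GAGGAA can lie inside the STAT6 pattern, but no promoter shown here held both. These are matches of letters and not binding sites.

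By the mean over all libraries the most abundant member was Itgb2, the shared β chain of leukocyte integrins. Its TPM were 612 and 583 on untreated TC plates and 542 and 500 on TC plates with IL-4. In gels they were 277 and 287 (low, untreated), 318 and 303 (low, IL-4), 305 and 299 (high, untreated) and 299 and 285 (high, IL-4). Every gel library was below every plate library, while within gels the neighbouring conditions overlapped or met. Itgb1, the β chain that pairs with the most α chains, had the same arrangement. On TC plates it was at 414 and 418 TPM untreated and 432 and 461 TPM with IL-4. In gels it was at 241 and 249 (low, untreated), 275 and 263 (low, IL-4), 236 and 255 (high, untreated) and 275 and 277 TPM (high, IL-4). The libraries of gels and plates again did not overlap, and within gels the IL-4 libraries were above the untreated ones.

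Itgam followed, with 332 and 337 TPM on untreated plates, 201 and 214 on plates with IL-4, 297 and 330 in untreated low-collagen gels and 220 and 193 with IL-4. High-collagen gels had the most, 400 and 391 TPM untreated and 283 and 300 TPM with IL-4. Within each substrate the IL-4 libraries were lower. Itgb5, a partner of Itgav, was at 192 and 200 TPM on untreated plates and 182 and 184 with IL-4, at 250 and 228 in untreated low-collagen gels and 168 and 174 with IL-4, and at 282 and 262 in untreated high-collagen gels and 198 and 190 with IL-4. The 4 untreated gel libraries were above all others.

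Itga6, the laminin-binding chain, was at 169 and 168 TPM on untreated plates, 160 and 178 in untreated low-collagen gels and 207 and 208 in untreated high-collagen gels. With IL-4 it was at 61.7 and 65, 36.5 and 31.4, and 64 and 70.5 TPM in that order. All 6 IL-4 libraries were below the 6 untreated ones, and those of low-collagen gels were the lowest. Itga5, the fibronectin receptor chain, was at 89.2 and 86.6 TPM on untreated plates and 65.6 and 65.6 TPM with IL-4. In gels it was at 23.6 and 27.3 (low, untreated), 32.3 and 27.5 (low, IL-4), 30.1 and 31.3 (high, untreated) and 29.4 and 35.5 TPM (high, IL-4). The gel libraries ran from 23.6 to 35.5 TPM and all lay below the plates.

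Itgav was at 40.7 and 42 TPM on untreated plates, 34.8 and 37.3 with IL-4, 27 and 26.2 in untreated low-collagen gels, 17.2 and 18.8 with IL-4, 30.4 and 23.2 in untreated high-collagen gels and 21.9 and 23.9 with IL-4. It was higher on plates than in any gel. Itga4 was at 31.7 and 30.9 TPM on untreated plates, 47.9 and 62.1 in untreated low-collagen gels and 43 and 43 in untreated high-collagen gels. With IL-4 it was at 19.5 and 19.4, 19.2 and 16.6, and 22 and 21.6 TPM in that order, so that the substrates were nearly level with IL-4 and apart without it.

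The remaining α chains of the β2 group were low in some conditions. Itgal was at 23.6 and 26.4 TPM on untreated plates, 17.1 and 17.9 in untreated low-collagen gels and 30 and 25.5 in untreated high-collagen gels. With IL-4 it was at 2.88 and 2.29, 4.09 and 2.29, and 7.53 and 7.54 TPM in that order. Each IL-4 library was below each untreated one. Itgax did the reverse, at 12.5 and 13.4 TPM on untreated plates and at 2.67 and 1.81 in untreated low-collagen and 2.37 and 2.56 in untreated high-collagen gels. With IL-4 it reached 138 and 130 TPM on plates, 94.6 and 86.8 in low-collagen gels and 46.2 and 54.4 in high-collagen gels, an order in which no neighbouring IL-4 conditions overlapped.

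**Figure D1:**
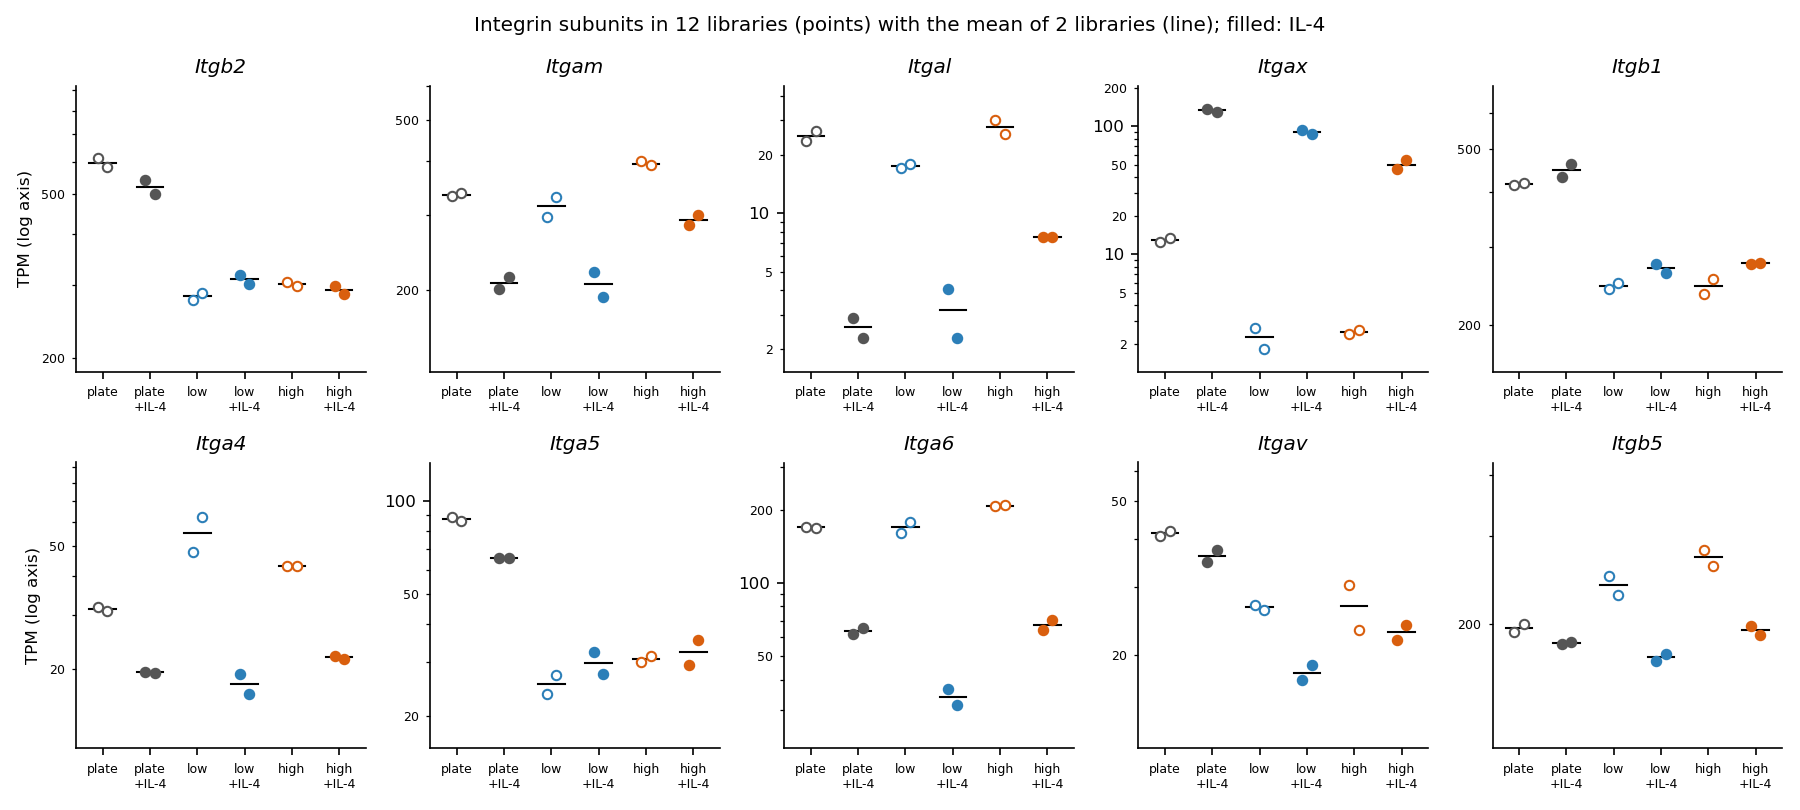
TPM (log axis, a separate range in each panel) of the 10 integrin subunits in 12 libraries on TC plates, in low-collagen (low) and in high-collagen gels (high), untreated (open) or with IL-4 (filled); each point is a library and each line the mean of 2. Itgb2, Itgb1, Itga5 and Itgav are higher in all 4 plate libraries than in any of the 8 gel libraries, and Itgax is between 46.2 and 138 TPM with IL-4 and between 1.81 and 13.4 TPM without it.

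Gels were first compared with TC plates as the mean of the 4 gel conditions against the mean of the 2 plate conditions. Of the 10 members, 6 fell and 3 rose, where 74.2% of all genes tested were called (26.2% higher and 48% lower in gels), so a high count of calls is not particular to integrins. The median log2 fold change was −0.42 over the members and −0.19 over all genes tested, and rescaling each library by its median ratio moved the median of all genes by 0.2. Both main β chains fell. Itgb2 went from a mean of 559 TPM on plates to 297 TPM in gels (log2 fold change −0.91, SE 0.0348, adjusted p = 1.03e-08) and Itgb1 from 431 to 259 TPM (−0.74, SE 0.0343, adjusted p = 3.6e-08). Itga5, the partner of Itgb1 for fibronectin, fell further, from 76.8 to 29.6 TPM (−1.34, SE 0.0676, adjusted p = 5.95e-08). Itgav fell from 38.7 to 23.6 TPM (−0.71, SE 0.0722, adjusted p = 9.36e-06). For these 4 genes the libraries of gels and plates did not overlap, which held for 43.8% of all genes tested, and after rescaling they stayed lower and called, at −0.69 for Itgb2, −0.52 for Itgb1, −1.12 for Itga5 and −0.5 for Itgav.

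Itgax fell as well (−1.52, SE 0.0817, adjusted p = 8.93e-08), with a mean of 36.4 TPM in gels and 73.4 TPM on plates. By contrast Itga4 rose by 0.32 (SE 0.0712, adjusted p = 0.00245), Itgb5 by 0.18 (SE 0.0381, adjusted p = 0.00144) and Itgam by 0.16 (SE 0.0459, adjusted p = 0.0112) on the log2 scale, with overlapping libraries. After rescaling these were larger, at 0.53, 0.4 and 0.37. The call of Itgam was lost without plate IL-4 replicate 1. In low-collagen gels alone Itgam was not called against plates before rescaling, untreated (−0.09, adjusted p = 0.31) or with IL-4 (−0.01, adjusted p = 0.895). Itga6 was called lower by a small amount (−0.13, adjusted p = 0.0495) that turned to 0.09 (adjusted p = 0.0546) after rescaling. Its call was also lost with 9 of the 12 libraries left out in turn. Among single gel conditions against matched plates, Itga6 was called lower only in low-collagen gels with IL-4 (−0.89). Itgal was at 0.28 (95% interval 0.02 to 0.54, adjusted p = 0.0538). After rescaling Itgal was called higher (0.46, adjusted p = 0.00349).

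**Figure D2:**
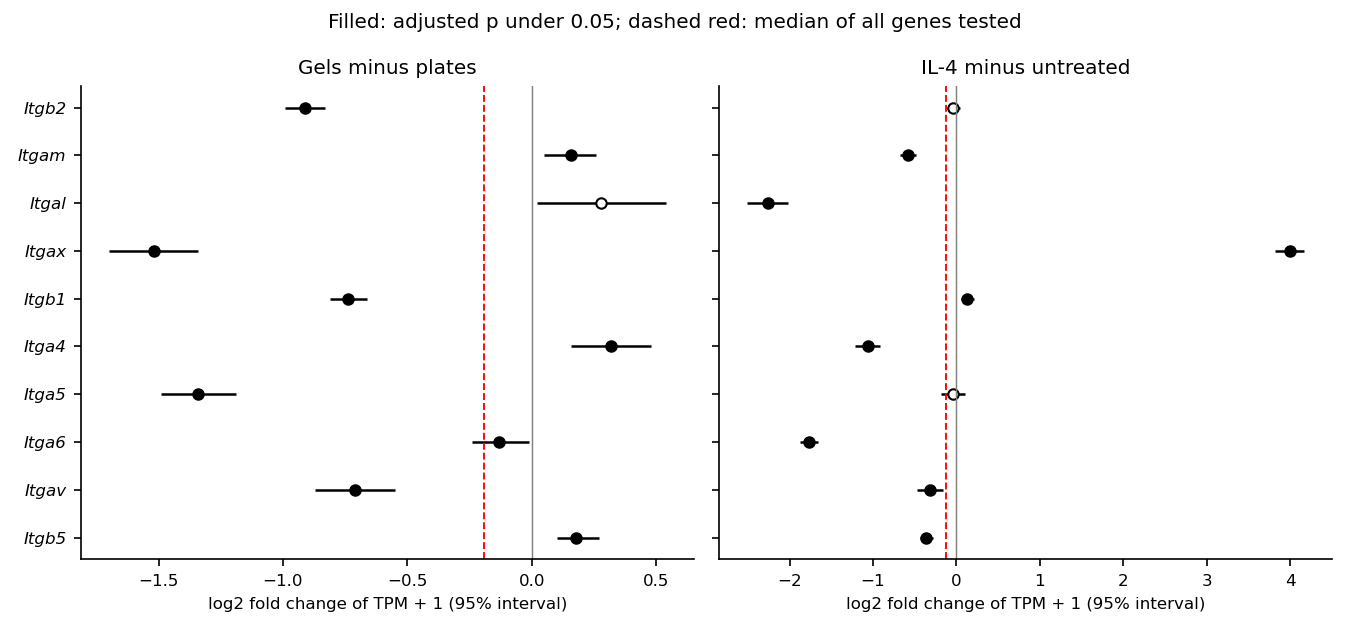
Log2 fold changes of TPM + 1 (x axes, with different ranges) with 95% intervals (bars) for the 10 members, gels minus plates on the left and IL-4 minus untreated on the right; filled points have an adjusted p under 0.05 and the dashed red line is the median of all genes tested. On the left Itgb2, Itgax, Itgb1, Itga5 and Itgav sit at −0.71 or lower, and on the right Itgax stands at 4 while Itgal is at −2.26.

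The matched comparisons of single conditions showed which of these differences held with and without IL-4. They share their plate libraries in pairs, and the composite above shares all of them. Without IL-4, 8 members were called in low-collagen gels against plates (2 higher and 6 lower, with 59.5% of all genes called, 22.5% higher and 36.9% lower) and 9 in high-collagen gels (4 higher and 5 lower, with 60.6%, 22.1% and 38.5%). With IL-4, 6 were called in low-collagen gels (0 higher and 6 lower, with 61.9%, 17.5% and 44.4%) and 7 in high-collagen gels (2 higher and 5 lower, with 61.9%, 20.8% and 41%). Itgb2, Itgb1, Itga5, Itgav and Itgax were lower in the gel in all 4 comparisons. Itga5 was at −1.75 and −1.49 untreated and at −1.11 and −1 with IL-4, in low- and high-collagen gels. Itgb2 was at −1.08 and −0.98 untreated and at −0.74 and −0.83 with IL-4. Itgax was at −2.12 and −2.01 untreated and at −0.56 and −1.4 with IL-4, and the value of −0.56 was lost as a call after rescaling (−0.25, adjusted p = 0.137).

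Rises in gels were called in some of these comparisons. Itga4 and Itgb5 rose in untreated gels, Itga4 by 0.78 in low- and 0.45 in high-collagen gels (adjusted p = 0.00026 and 0.00756) and Itgb5 by 0.28 and 0.47 (adjusted p = 0.00305 and 0.000116). With IL-4 the same genes were at −0.12 and 0.15 for Itga4 and at −0.1 and 0.08 for Itgb5, with no adjusted p below 0.204. After rescaling both were called higher in high-collagen gels with IL-4, Itga4 at 0.38 (adjusted p = 0.0067) and Itgb5 at 0.31 (adjusted p = 0.00969). In low-collagen gels with IL-4 they were then at 0.18 and 0.21, uncalled. In high-collagen gels Itgam was higher than on plates untreated (0.24, adjusted p = 0.0181) and with IL-4 (0.49, adjusted p = 0.000311), and Itga6 was higher untreated (0.3, adjusted p = 0.0122) and at 0.08 with IL-4 (adjusted p = 0.418). That value of Itga6 with IL-4 became 0.31 after rescaling and was called (adjusted p = 0.00175). Without IL-4 the call of Itgam was lost when any of the 4 libraries compared was left out, and that of Itga6 without plate untreated replicate 2 or high-collagen untreated replicate 2. Itgal in high-collagen gels with IL-4 was above plates with IL-4, at 7.53 against 2.58 TPM (1.26, SE 0.19, adjusted p = 0.000277). In low-collagen gels with IL-4, Itga6 was below plates with IL-4 (−0.89, adjusted p = 1.46e-05). In untreated low-collagen gels Itgal was called lower (−0.49, adjusted p = 0.0484), a call lost after rescaling (−0.34, adjusted p = 0.132). That call was also lost with a pseudocount of 0.1 (adjusted p = 0.0867) and with no filter (adjusted p = 0.106). Leaving out libraries in turn lost it for 10 of the 12.

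IL-4 was compared with no treatment as the mean over the 3 substrates. Itgax rose, and Itgal, Itga6 and Itga4 fell by the largest amounts. Of the members, 2 rose and 6 fell, where 45.7% of all genes tested were called (13.1% higher and 32.7% lower). The median over the members was −0.34 and that over all genes −0.12, and rescaling moved the latter by 0.12. Itgax, the CD11c chain, went from 5.89 to 91.6 TPM, 15.6-fold (log2 fold change 4, SE 0.077, adjusted p = 3.52e-10), and ranked 17 of 11865 genes from the highest log2 fold change. Itgal, the CD11a chain, fell from 23.4 to 4.44 TPM (−2.26, SE 0.11, adjusted p = 1.59e-07) and ranked 11 from the lowest. Itga6 fell from 182 to 54.8 TPM (−1.77, SE 0.0491, adjusted p = 3.37e-09) and ranked 46 from the lowest, and Itga4 fell from 43.1 to 19.7 TPM (−1.06, SE 0.0671, adjusted p = 1.11e-06). These are the 4 members whose 6 IL-4 and 6 untreated libraries did not overlap, which held for 7.1% of all genes tested.

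Smaller falls were called for Itgam, by 0.58 (SE 0.0433, adjusted p = 3.67e-06), for Itgb5, by 0.36 (SE 0.0359, adjusted p = 3.12e-05), and for Itgav, by 0.31 (SE 0.0681, adjusted p = 0.00424) on the log2 scale. The value of Itgav was no longer called after rescaling (−0.19, adjusted p = 0.0636). Itgb1 rose slightly, from 302 to 331 TPM (0.13, SE 0.0323, adjusted p = 0.00728). Itgb2 was at −0.04 (95% interval −0.11 to 0.04, adjusted p = 0.382) and Itga5 at −0.04 (95% interval −0.18 to 0.1, adjusted p = 0.626), and both turned to 0.09, uncalled, after rescaling.

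Within substrates, 7 members were called on TC plates (1 higher and 6 lower, with 22.8% of all genes called, 8.87% higher and 14% lower), 7 in low-collagen gels (1 higher and 6 lower, with 34.2%, 8.94% and 25.3%) and 6 in high-collagen gels (1 higher and 5 lower, with 19.5%, 7.77% and 11.7%). The member that rose was Itgax on each substrate, 10.3-fold on plates, 40.5-fold in low-collagen and 20.4-fold in high-collagen gels by mean TPM, and the gel ratios rest on untreated levels near 2 TPM. Itga4, Itga6, Itgal and Itgam fell on all 3 substrates. Itgal fell by 2.86, 2.18 and 1.75 on the log2 scale on plates, in low- and in high-collagen gels. Itgb5 fell in both gels, by 0.48 and 0.49, and was at −0.1 on plates (adjusted p = 0.291). Itga5 fell on plates, by 0.42 (adjusted p = 0.0223), a call lost when any 1 of the 4 plate libraries was left out, and was at 0.22 and 0.07 in low- and high-collagen gels. In low-collagen gels rescaling brought Itga5 (0.43, adjusted p = 0.00474), Itgb1 (0.35, adjusted p = 0.0014) and Itgb2 (0.35, adjusted p = 0.00269) to called rises. In high-collagen gels it did so for Itgb1 (0.29, adjusted p = 0.00626). Itgb2 was called lower on plates (−0.2, adjusted p = 0.0313), but not after rescaling (−0.13, adjusted p = 0.171).

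**Figure D3:**
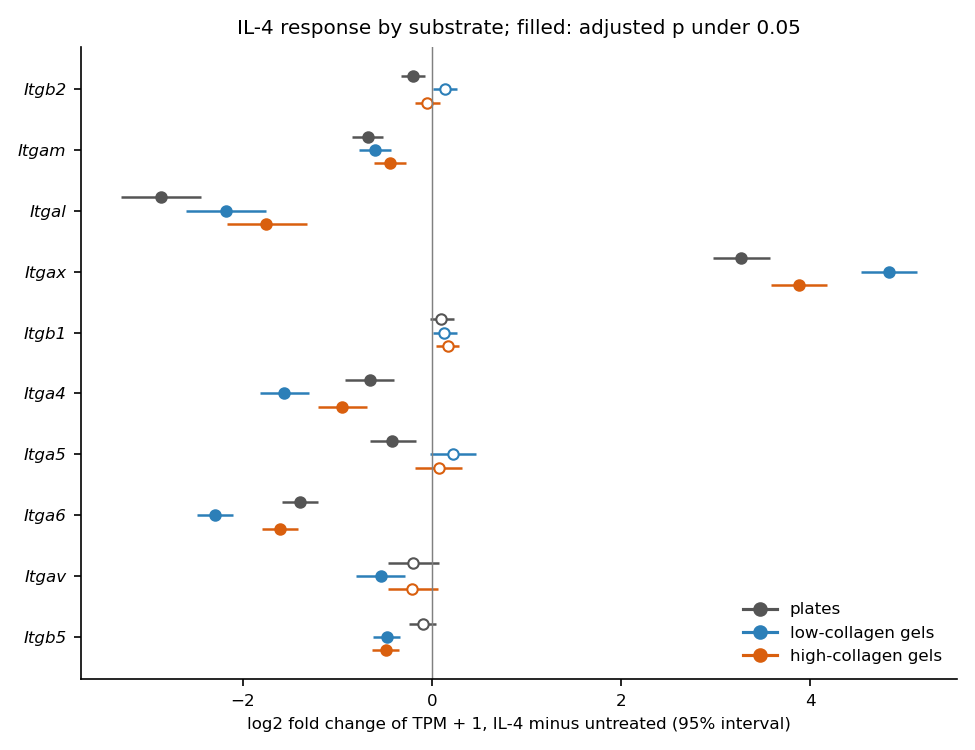
Log2 fold changes of TPM + 1 with IL-4 (x axis) and their 95% intervals (bars) for the 10 members on TC plates (grey), in low-collagen (blue) and in high-collagen gels (orange); filled points have an adjusted p under 0.05. Itgax lies at 3.27, 4.83 and 3.88, and Itga4 and Itga6 lie furthest to the left in low-collagen gels.

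Whether the response to IL-4 differed between gels and plates was tested as an interaction, the mean response in the 2 gels minus that on plates. It was called for 6 members, with 11% of all genes tested called. For Itgax the response was larger in gels (difference of log2 fold changes 1.09, SE 0.163, adjusted p = 0.00267), and its mean level with IL-4 was higher on plates, at 134 TPM, than in low-collagen, at 90.7 TPM, or high-collagen gels, at 50.3 TPM. Averaged over the 2 gels, the fall of Itga6 was larger than on plates (−0.55, SE 0.104, adjusted p = 0.00873). So were those of Itga4 (−0.6, SE 0.142, adjusted p = 0.026) and Itgb5 (−0.38, SE 0.0762, adjusted p = 0.0113). For Itga6 and Itga4 the high-collagen gels lay nearer to plates than the low-collagen gels. Itga6 was at −1.4 on plates, −2.29 in low- and −1.61 in high-collagen gels, and Itga4 at −0.66, −1.56 and −0.95. The fall of Itgal was smaller in gels (0.9, SE 0.233, adjusted p = 0.0365). Itga5 differed by 0.56 (SE 0.135, adjusted p = 0.0267), from a fall on plates to uncalled values of 0.22 in low- and 0.07 in high-collagen gels. Itgb2 was at 0.24 (adjusted p = 0.0549) and Itgam at 0.16 (adjusted p = 0.299). Rescaling brought both to a call, Itgb2 at 0.34 (adjusted p = 0.0206) and Itgam at 0.26 (adjusted p = 0.0341). The calls for Itgax and Itga6 held when any single library was left out, whereas those of Itga4, Itga5, Itgal and Itgb5 were lost without plate untreated replicate 1, which left 2 calls. Those of Itga4, Itga5 and Itgal were also lost without each of the other plate libraries, with 3 calls left without plate untreated replicate 2 or plate IL-4 replicate 2, and that of Itgb5 was also lost after rescaling (−0.28, adjusted p = 0.124).

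The density of collagen was compared between the gels. In untreated gels 0 of the 10 members were called by limma, with 2.28% of all genes called, while 6 had an unadjusted p under 0.05, as had 17.4% of all genes, and 5 an adjusted p under 0.2, as had 11.5%. The member nearest to a call was Itgam, higher in high-collagen gels (0.34, 95% interval 0.17 to 0.5, adjusted p = 0.0539), and Itgb1 was at 0 (95% interval −0.12 to 0.13). After rescaling Itgam (0.35, adjusted p = 0.0229) and Itga6 (0.31, adjusted p = 0.0397) were called higher in untreated high-collagen gels. With IL-4, 4 members were called, with 7.75% of all genes called (4.98% higher and 2.76% lower in high-collagen gels). Itga6 was higher in high-collagen gels, at 67.3 against 33.9 TPM (0.97, SE 0.085, adjusted p = 0.00128), as were Itgal, at 7.53 against 3.19 TPM (1.06, SE 0.19, adjusted p = 0.0112), and Itgam, at 291 against 206 TPM (0.5, SE 0.0749, adjusted p = 0.00566). Itgax was lower, at 50.3 against 90.7 TPM (−0.84, SE 0.133, adjusted p = 0.007). Without high-collagen IL-4 replicate 1 the calls of Itgal and Itgax were lost, and without high-collagen IL-4 replicate 2 those of Itgal and Itgam, leaving 2 calls each time. The call of Itgal was also lost without low-collagen IL-4 replicate 2.

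The response to IL-4 in high- minus low-collagen gels was called by limma for 0 members, with 0.185% of all genes called, and 4 members had an unadjusted p under 0.05, as had 11% of all genes. Itgax was at −0.95 (95% interval −1.37 to −0.53, adjusted p = 0.152) and Itga6 at 0.67 (95% interval 0.4 to 0.94, adjusted p = 0.0882). After rescaling Itga6 was called (0.58, adjusted p = 0.0449).

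Since α and β chains leave the endoplasmic reticulum as pairs, the levels of partners were set side by side as a description of transcripts, not of surface receptors. The ratio of Itgb2 to the summed TPM of Itgal, Itgam, Itgax and Itgad was 1.6 on untreated plates and 1.51 with IL-4. It was lower in every gel condition, at 0.846 and 1.03 in low-collagen gels and 0.71 and 0.837 in high-collagen gels, untreated and with IL-4. The mean sum of the α chains was 372 and 344 TPM on plates, 334 and 300 TPM in low-collagen gels and 426 and 350 TPM in high-collagen gels, untreated and with IL-4, and single libraries ran from 282 to 432 TPM. Within that sum the makeup shifted. Itgam held 90.1% and 89.4% on untreated plates and 58.8% and 61.9% with IL-4, as Itgax went from 3.41% and 3.55% to 40.3% and 37.5%. In low-collagen gels Itgax went from 0.84% and 0.517% to 29.6% and 30.7%, and in high-collagen gels from 0.549% and 0.611% to 13.7% and 15%. Itgad was at most 0.371% of the sum. For Itgb1 the ratio to the sum of Itga1 to Itga11, without those of the β2 group, and Itgav was 1.21 untreated and 2.33 with IL-4 on plates, 0.854 and 2.54 in low-collagen and 0.764 and 1.82 in high-collagen gels, with Itga6 the largest α term in untreated cells.

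**Figure D4:**
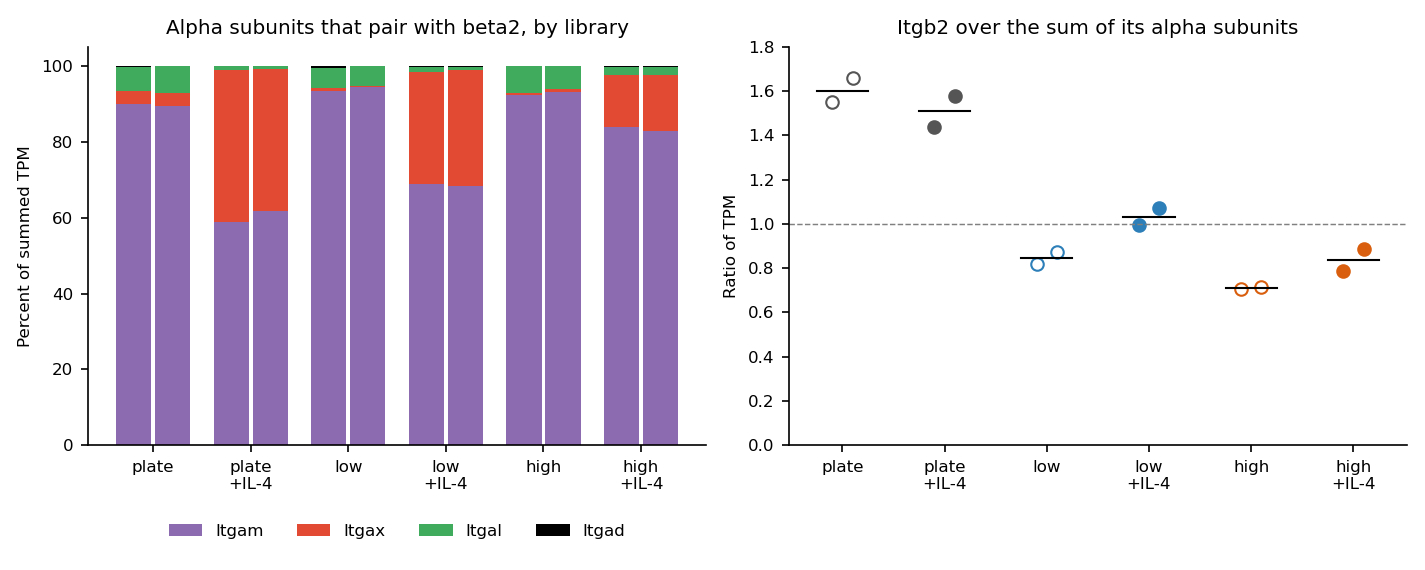
Left, percent of the summed TPM of the α chains that pair with β2 held by Itgam, Itgax, Itgal and Itgad in each of the 12 libraries (1 bar each); right, Itgb2 TPM over that sum in each library (points) with the mean of 2 (line), open for untreated and filled for IL-4. The Itgax share is 37.5% to 40.3% on plates with IL-4 and 13.7% to 15% in high-collagen gels with IL-4, and the ratio is 1.44 to 1.66 in the 4 plate libraries and at most 1.07 in the 8 gel libraries.

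Over the 12 libraries, which share their conditions, the log2 levels of Itga5, Itgb1 and Itgb2 ran together, with Pearson r of 0.98 for Itga5 with Itgb2 and 0.95 both for Itga5 with Itgb1 and for Itgb1 with Itgb2. A second set, Itga6, Itgal and Itgam, had r of 0.96 for Itgal with Itgam and 0.93 for Itga6 with Itgal. Itgax ran opposite to Itga4, at −0.97. Among 9670 genes with a mean of at least 5 TPM, the 3 nearest to Itgax by r were Dhrs9 (0.994), Galnt6 (0.992) and Cst7 (0.991), and to Itga6 they were Tm6sf1 (0.993), Arhgef10l (0.992) and Tgfbi (0.99). Nearest to Itgb2 were Anp32e (0.995), Ttk (0.993) and Rrm2 (0.993), to Itgb1 Ybx3 (0.993), Actn4 (0.992) and Hyou1 (0.992) and to Itga5 Brca1 (0.996), Myo1c (0.994) and Syne1 (0.993). For Itga4 they were Ivns1abp (0.984), Ulk2 (0.983) and Clasp2 (0.983), for Itgal Clec4n (0.982), Slc44a1 (0.981) and Tlr2 (0.979), and for Itgav Fhl3, Nup153 and Cpne2 (all 0.976). Itgam had Stat4 (0.976), Plekhg3 (0.971) and B3gnt3 (0.97), and Itgb5 had Pck2 (0.967), Gna12 (0.967) and Maml2 (0.964). With 6 conditions, many genes reach such values, and they describe likeness of pattern only.

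The other subunits with a mean of at least 1 TPM were Itgb3, Itgb7, Itga9, Itga8 and Itga2b. Itgb3 was at 9.36 and 9.48 TPM on untreated plates, 3.82 and 3.71 in untreated low-collagen and 3.79 and 4.34 in untreated high-collagen gels. With IL-4 it was at 85.6 and 83.6, 38.9 and 41.5, and 36.6 and 37 TPM in that order, so every IL-4 library was above every untreated one. It rose with IL-4 by 3.02 on the log2 scale (SE 0.0509, adjusted p = 1.37e-10), fell in gels by 1.1 (SE 0.0539, adjusted p = 4.92e-08) and had an r of 0.99 with Itgax. The ratio of Itgb3 to Itgb5, both partners of Itgav, was 0.0481 on untreated plates and 0.463 with IL-4, 0.0158 and 0.235 in low-collagen gels and 0.015 and 0.19 in high-collagen gels. Itgb7, a partner of Itga4, was higher in gels (0.49, adjusted p = 0.000575; 11.9 against 8.06 TPM), as was Itga2b, the platelet αIIb chain (1.22, adjusted p = 0.000311), at 2.06 against 0.288 TPM. With IL-4, Itga8 fell by 1.2 (adjusted p = 0.00036) and Itga9 by 0.71 (adjusted p = 0.0022) on the log2 scale, from 3.25 to 0.876 and from 8.1 to 4.51 TPM.

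**Figure D5:**
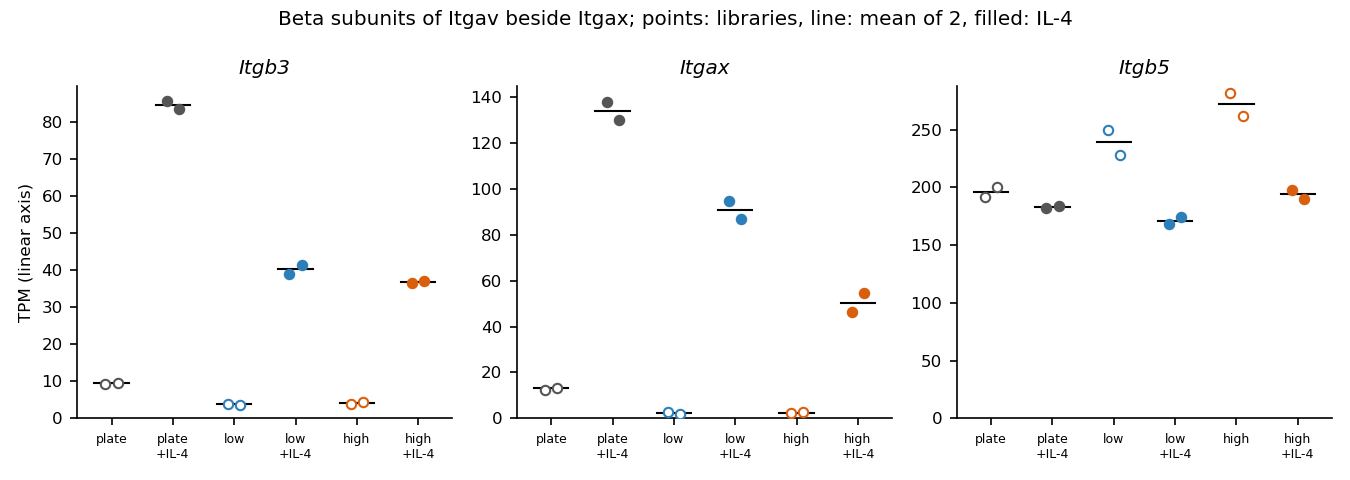
TPM (linear axes from 0, a separate range in each panel) of Itgb3, Itgax and Itgb5 in 12 libraries (points) with the mean of 2 (line), open for untreated and filled for IL-4. Itgb3 and Itgax are both highest on plates with IL-4, at 83.6 to 85.6 and 130 to 138 TPM, while Itgb5 is highest in untreated high-collagen gels, at 262 and 282 TPM.

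Inside the cell, integrin tails are bound by talin and kindlin, which activate the receptor, and by kinases and actin linkers. Of 28 such genes, 24 passed the filter, and in gels against plates 16 fell, 5 rose and 3 were not called, where 48% of all genes fell and 26.2% rose, with a median of −0.37 against −0.19 over all genes. After rescaling 13 fell and 8 rose. The largest falls were those of the actin crosslinkers Flna (425 to 105 TPM, −2.03, adjusted p = 2.17e-09) and Actn1 (138 to 32.2 TPM, −2, adjusted p = 1.87e-09) and of Ptk2, focal adhesion kinase (7.55 to 1.64 TPM, −1.7, adjusted p = 2.03e-07). Talin 1 (Tln1), named after its value was seen, fell from 303 to 111 TPM (−1.44, adjusted p = 2.28e-09). With IL-4, 12 fell, 5 rose and 7 were not called, where 32.7% of all genes fell and 13.1% rose, with a median of −0.11 against −0.12 over all genes, and after rescaling 8 fell and 6 rose. The largest differences were falls of Fyb, an adaptor of inside-out signalling (234 to 112 TPM, −1.05, adjusted p = 4.48e-07), Ptk2b, the kinase Pyk2 (119 to 60.7 TPM, −0.93, adjusted p = 6.67e-07), and vinculin, Vcl (9.68 to 5.43 TPM, −0.7, adjusted p = 0.000133).

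Of 19 genes for integrin ligands, 18 were in the table and 11 passed the filter. In gels against plates 6 rose, 4 fell and 1 was not called, where 26.2% of all genes rose and 48% fell, with a median of 0.12 against −0.19 over all genes, and after rescaling 6 rose and 2 fell. Thbs1, a matrix glycoprotein bound by several integrins, rose from 21 to 313 TPM (3.66, adjusted p = 3.62e-10), and C3, the source of the iC3b bound by Itgam and Itgax, from 16.1 to 173 TPM (2.9, adjusted p = 1.25e-08). Spp1, osteopontin, a ligand of Itgav and Itga4, fell from 4240 to 1680 TPM (−1.27, adjusted p = 6.72e-09). With IL-4, 3 rose, 6 fell and 2 were not called, where 13.1% of all genes rose and 32.7% fell, with a median of −0.19 against −0.12 over all genes, and after rescaling 3 rose and 5 fell. Fn1, fibronectin, rose from 32.3 to 374 TPM (3.5, adjusted p = 2.45e-10), Thbs1 fell from 356 to 75.1 TPM (−2.3, adjusted p = 5.3e-09) and C3 went from 46.6 to 195 TPM (1.23, adjusted p = 1.16e-05). That mean of C3 joins opposite responses, since C3 fell on plates, from 21.2 to 11 TPM (−0.9, adjusted p = 0.00691), and rose in low-collagen (2.42, adjusted p = 1.04e-05) and high-collagen gels (2.18, adjusted p = 3.19e-05), and the interaction was called (3.19, adjusted p = 5.17e-05). Of the α chains named above for fibronectin, Itga5 was at −0.04 and Itga4 at −1.06 in IL-4 against untreated. Itgav, the chain for ligands with an RGD motif, was at −0.31. Its partners Itgb3, Itgb1 and Itgb5 were at 3.02, 0.13 and −0.36.

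The table lists Itgam on 2 lines, and the values above are those of the line for the Itgam gene itself. The other line belongs to a gene named Gm49368 in GENCODE, at chr7:128062683-128128160, which starts within Itgam and ends 1386 bases before Itgax. Of the 31-base words in Itgam transcripts, 67.2% also occur in Gm49368, so reads in these words were divided between both lines by the quantification. Gm49368 was at 1.29 to 10.9 TPM, against 193 to 400 TPM for Itgam. The mean of the gels was above plates (1.13, SE 0.202, adjusted p = 0.00053), but untreated gels were not called (0.49 in each, adjusted p = 0.229). With IL-4 it was higher in low-collagen (1.31, adjusted p = 0.0062) and high-collagen gels (2.25, adjusted p = 0.000221). Its levels were 9.65 and 10.9 TPM in high-collagen gels with IL-4 and 1.29 and 1.43 TPM on plates with IL-4. The part of shared reads in these differences was not tested. Itgax shares 10.7% of its words with other genes, all of them with Itgad, Itgb5 shares 7.86% and Itga6 6.15%, and the other members share at most 2.28%.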

How the data were processed

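RNA of the BMDMs was made into stranded mRNA libraries and sequenced from both ends by the authors, who estimated transcript abundances with kallisto 0.46.1 on the Ensembl GRCm38 transcriptome and tested genes with Sleuth. The deposited table gives TPM per gene and library, scaled by the authors to the same total in each library. How transcripts were summed into genes is not given in the sources used here. TPM hold no depth: each library had 11543 to 11910 genes of at least 1 TPM, which limits precision in an unknown way for genes near 1 TPM, and log2(TPM + 1) understates the change of such genes.

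Of 34456 lines, 129 repeated a symbol and its values and were collapsed to 34327 genes. Replicates correlated at 0.98 to 0.985, and 0 pairs of libraries were identical. limma 3.58.1 (R 4.3.3) was fitted to log2(TPM + 1) of 11865 genes with a mean of at least 1 TPM, with 1 mean per condition, 6 residual degrees of freedom and a mean-variance trend, and p-values were adjusted over all genes. An exact permutation test of 2 libraries against 2 cannot go below a p of 0.33 (two-sided) and was not used. The fit was tested on simulated data for gels against plates in 11865 genes, where it recovered 92% of the genes changed 2-fold and 96% of those changed 4-fold with 6% false calls, and made 0 calls where no gene was changed. The simulation changed only a small part of the genes and had independent normal noise without a shift between libraries. In the data 74.2% of genes were called in this comparison, so these rates need not hold for it.

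The members and gene lists were chosen with earlier results of these data known. A further gene of the macrophage list is not reported here. Named were all members, other integrin subunits with a mean of at least 1 TPM, the 3 largest called differences of the adaptor and ligand lists in both main comparisons, and the 3 genes most correlated with each member. Alternatives were a pseudocount of 0.1, no filter, median-ratio rescaling, an adjusted p under 0.2 (the threshold of the study), the replicate number as a block, the 8 gel libraries alone and each library left out in turn. Gene positions and 31-base words are from the GENCODE annotation of GRCm38, promoters from RefSeq. Figures used python 3.11.15 and matplotlib 3.10.9.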

Additional observations from a re-analysis of the deposited data

Results flagged for a closer look

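For 6 of the 10 members the response to IL-4 differed between gels and TC plates by the interaction term of the limma fit, given here as the mean response in gels minus that on plates on the log2 scale. The values were 1.09 for Itgax (adjusted p = 0.00267), −0.55 for Itga6 (adjusted p = 0.00873), −0.38 for Itgb5 (adjusted p = 0.0113), −0.6 for Itga4 (adjusted p = 0.026), 0.56 for Itga5 (adjusted p = 0.0267) and 0.9 for Itgal (adjusted p = 0.0365). Against these, 11% of all genes tested had such a difference. The responses of Itga6 and Itga4 in high-collagen gels lay nearer to plates than those in low-collagen gels.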

How the results depend on the processing

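Counts of members called changed by over 1.5 times in these cases. In high- against low-collagen gels untreated, 0 calls became 2 after rescaling and 5 at an adjusted p under 0.2, and with IL-4 4 became 7 at that threshold. The IL-4 response in gels minus plates went from 6 calls to 3 with no filter, where more genes were tested, and that in high- minus low-collagen gels from 0 to 1 after rescaling and 2 at an adjusted p under 0.2. With 1 library left out, the counts ran from 0 to 1 for density untreated, from 2 to 4 for density with IL-4 and from 2 to 6 for the response in gels minus plates. In the other comparisons every count stayed within 1.5 times under all alternatives run.

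Rescaling turned the sign of these values, mostly close to 0. Itga6 in gels against plates, Itga5 with IL-4 and Itgb2 with IL-4 became 0.09. In low-collagen gels against plates Itgam became 0.07 untreated and 0.3 with IL-4, and with IL-4 Itga4 became 0.18 and Itgb5 0.21. The value of Itgam with IL-4, −0.01 before rescaling, was then called (adjusted p = 0.00126). Itgb2 with IL-4 in high-collagen gels became 0.07. In high- against low-collagen gels Itgav became 0.02 untreated and Itgb1 −0.04 with IL-4, and in the response in high- minus low-collagen gels Itgb1 became −0.06. The cause was not tested.

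Leaving out 1 library at a time turned the sign of 11 values, none of them called. Itga5 ran from −0.09 to 0 with IL-4, from −0.06 to 0.2 with IL-4 in high-collagen gels and from −0.02 to 0.24 in high- against low-collagen gels with IL-4. In low-collagen gels against plates Itga6 ran from −0.08 to 0.08 untreated, and with IL-4 Itgal ran from −0.12 to 0.51 and Itgam from −0.11 to 0.08. In high- against low-collagen gels untreated Itgav ran from −0.19 to 0.19, Itgax from −0.08 to 0.3 and Itgb1 from −0.05 to 0.06. In the response in high- minus low-collagen gels Itgb1 ran from −0.02 to 0.09 and Itgb5 from −0.07 to 0.06.

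Of 77 called values, 76 kept their direction and call with a pseudocount of 0.1, 72 with no filter and 70 after rescaling, and all 17 that could be refitted did so with the gel libraries alone. Of the 53 values not called, 14 became called in the same direction after rescaling and 10 turned their sign, so the absence of a call often depended on the scaling. Libraries of the same replicate number did not deviate together (r from −0.123 to 0.109 over 15 pairs of conditions, with 1 above 0.1), so the numbers were not taken to pair them. With the replicate block the counts were those of the fit without it in all 13 comparisons, 9 in gels against plates and 8 with IL-4, and 76 of the 77 called values kept their call, with Itga6 in gels against plates the exception (adjusted p = 0.0622). Depth is not known from TPM and sets no limit that can be given.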
